A study of Rattus norvegicus with 6 samples.

Results

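The genes described here bind, sense, make or break down retinoic acid. They are the cellular retinoic acid binding proteins Crabp1 and Crabp2, the nuclear receptors Rara, Rarb, Rarg and Rxra, the enzymes Aldh1a2 and Cyp26b1, and the retinol importer Stra6. They were picked by symbol, through the Entrez identifiers of the deposited table, and all 9 were found among its 17139 genes. The libraries hold polyadenylated RNA of primary rat cells from the nucleus pulposus, the soft centre of the intervertebral disc. The control group of 3 libraries had no treatment, and the bradykinin group of 3 libraries was given 10 µM of this vasoactive peptide. Rat strain, age and sex and the treatment time are not given in the sources used here. The treated libraries carry the title B2R, and their group was taken from the treatment label. The genes were proposed with this same contrast in view, so their values under bradykinin and control are a description. Where fits across all genes give a call or a standard error for them, it is printed beside the share of all genes called and taken as no evidence about these genes.

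Retinoic acid is made from vitamin A in successive oxidations, the last of them by retinaldehyde dehydrogenases such as Aldh1a2. It enters the nucleus bound to Crabp2 or is held in the cytoplasm by Crabp1, and pairs of a retinoic acid receptor and a retinoid X receptor read it on DNA. Enzymes of the Cyp26 family clear it. In cartilage and the developing skeleton, retinoic acid is known for restraining chondrocyte differentiation, and excess retinoic acid sets off matrix loss in cultured cartilage.

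Total counts per library ran from 12883067 to 15462764. Levels are in CPM, a gene's counts relative to its library's total, scaled between libraries by TMM. Bradykinin replicate 3 stood apart from the rest: across genes, its Spearman correlations with other libraries were 0.960 to 0.963, and those among the other 5 were 0.992 to 0.996. The log2 fold changes and calls of the retinoic acid genes are therefore given with and without it. As to cell identity, the nucleus pulposus marker Foxf1 had at least 27.0 CPM in every library. Pax1 had 83.5, 94.7 and 82.3 CPM with bradykinin and 117, 107 and 97.1 in controls, lower in every treated library. Car3, at 2.60, 3.34 and 3.58 against 7.66, 8.49 and 8.11 CPM, and Cdh2, at 65.4 to 75.1 against 76.1 to 83.5, were also lower in each. Aqp1 was higher in every treated library, at 134 to 137 against 112 to 117 CPM. Cd24 overlapped between groups, at 4.41 to 5.86 against 4.33 to 7.44 CPM. The part of these markers in the results was not tested. Krt8 had no more than 1.76 CPM, and the cartilage collagen gene Col2a1 had 0 to 2 counts. Krt18, Krt19 and Tbxt were not analysed here. The fibroblast and annulus fibrosus list, with all 8 markers analysed, summed to 60996 to 76835 CPM. The endothelial list, with 3 of 5 markers analysed, summed to 0.195 to 0.872 CPM.

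A gene was called when its p-value from edgeR's quasi-likelihood test, after Benjamini-Hochberg adjustment over the 12413 tested genes, was at most 0.05. In the 6 libraries that made 0 calls (0.0%), and for 849 genes the unadjusted p lay under 0.05. Limma-voom made 0 calls and DESeq2 made 44, or 0.354%. Of the 9 retinoic acid genes, 7 had enough counts to be tested and 0 were called by any of these tools. Without bradykinin replicate 3, edgeR called 244 of 12536 genes higher (1.95%) and 144 lower (1.15%). Scaling by library totals turned this split to 162 higher and 185 lower. In those 5 libraries 1 of the 7 genes, Crabp1, was called lower and 0 higher. The labels do not say whether replicates came from separate animals or cultures, so the p-values reflect only how far these libraries differed, and that spread may be technical. In bulk RNA, fewer cells of a type and less RNA per cell cannot be told apart.

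**Figure D1:**
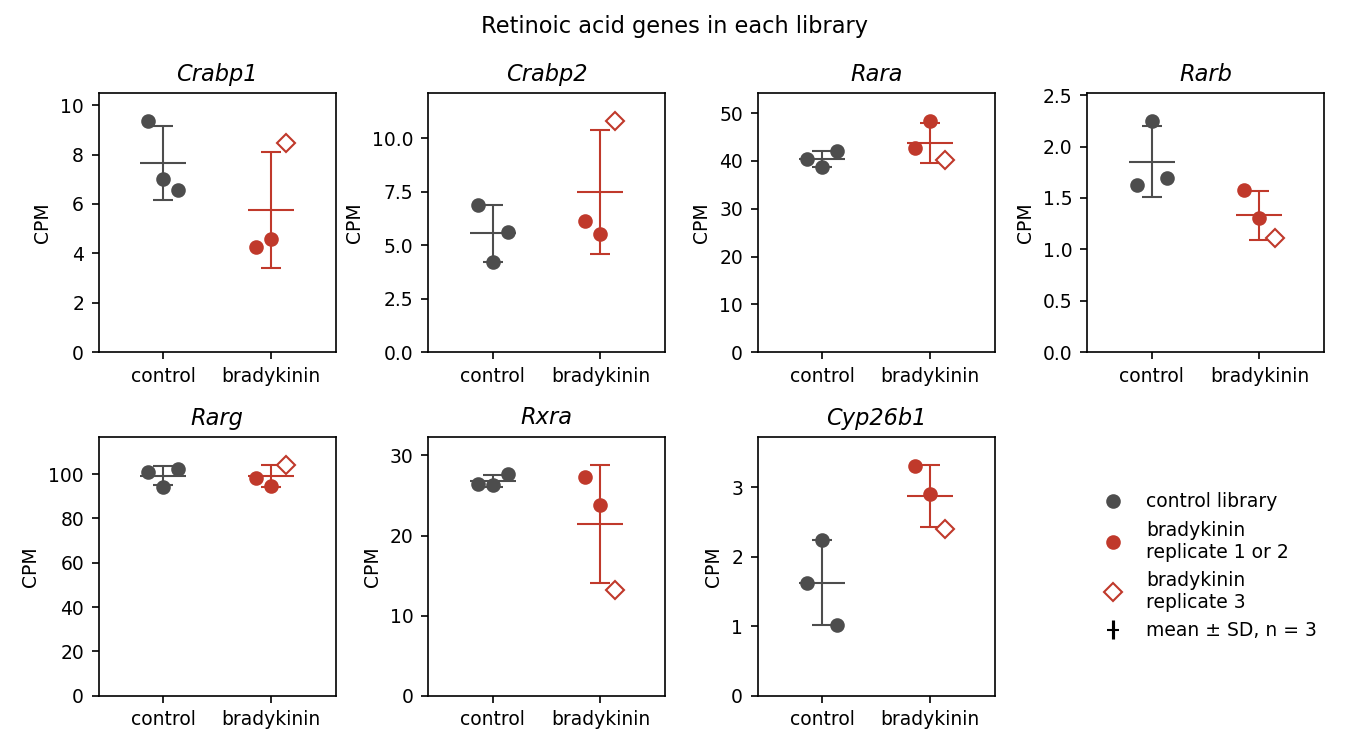
CPM (linear axes from 0, each gene on its own axis) of the 7 tested retinoic acid genes in each library. Filled points are libraries, the open diamond is bradykinin replicate 3, and bars are mean ± SD over 3 libraries. Crabp1 was low in bradykinin replicates 1 and 2 (4.26 and 4.58 CPM), and Cyp26b1 in all 3 bradykinin libraries was above all 3 controls.

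Crabp1 (ENSRNOG00000023633), the cytoplasmic binding protein, had 4.26, 4.58 and 8.46 CPM with bradykinin (replicates 1, 2 and 3) and 9.35, 7.02 and 6.56 in controls. Replicates 1 and 2 were below every control, while replicate 3 lay inside the control range, so the groups overlapped. The log2 fold change was -0.40 ± 0.29 (SE) over all 6 libraries and -0.79 ± 0.20 without replicate 3. That call in 5 libraries ended under limma-voom and whenever any further library was left out (-0.89 to -0.62), and DESeq2 gave Crabp1 no adjusted p there. These values rest on 54 to 144 counts per library.

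Some cell type marker lists also summed lower in bradykinin replicates 1 and 2 than in every control. Replicate 3 lay within the control range for the Schwann cell list, as for Crabp1, and below it for the smooth and skeletal muscle lists. The Schwann cell list, with 3 of 4 markers analysed, summed to between 19.6 and 26.4 CPM in the first and second bradykinin libraries, to 33.5 in replicate 3 and to 31.0 to 35.0 in controls. Most of that was S100b, which cartilage cells also express. The pericyte and smooth muscle list, with all 6 markers analysed, summed to between 1522 and 1525 CPM in those libraries, to 1752 in replicate 3 and to 1814 to 1931 in controls. Acta2 made up most of it and Myh11 was also lower with bradykinin, at 47.3 to 58.6 against 69.9 to 73.6 CPM. Des and Mcam were higher in every bradykinin library: Des had 34.1 to 46.1 CPM against 24.8 to 25.4 in controls, and Mcam 9.83 to 13.3 against 8.90 to 9.80. Cspg4 was mixed, with 411 and 449 CPM in replicates 1 and 2, 229 in replicate 3 and 281 to 293 in controls. The pericyte gene Rgs5 had 0 to 3 counts, too few to give a direction. The skeletal muscle list, with 3 of 5 analysed, summed to 1.45 to 1.58, to 2.34 and to 2.67 to 3.85 CPM in the same order. The part of these markers in the Crabp1 values was not tested.

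Crabp2 (ENSRNOG00000022101), which carries retinoic acid to its receptors in the nucleus, had 6.15, 5.52 and 10.8 CPM with bradykinin and 6.88, 4.21 and 5.61 CPM in controls. The first and second bradykinin libraries fell within the control range and replicate 3 was above it. The log2 fold change was 0.43 ± 0.30 over 6 libraries and 0.06 ± 0.21 without replicate 3. In replicate 3 the level of Crabp1 was 1.92 times, and that of Crabp2 1.85 times, the mean of replicates 1 and 2.

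Both binding proteins were thus higher in replicate 3 than in the other bradykinin libraries, Crabp1 within its control range and Crabp2 above it. Their ratio there was like that of the other bradykinin libraries. The ratio of Crabp1 to Crabp2 counts, which needs no scaling between libraries, was 0.692, 0.829 and 0.783 with bradykinin and 1.36, 1.67 and 1.17 in controls. All 3 bradykinin libraries had fewer Crabp1 than Crabp2 counts, and all 3 controls had more. The mean ratio was 0.768 ± 0.0695 (SD, n = 3) with bradykinin and 1.40 ± 0.251 in controls. Over summed counts it was 0.772 with bradykinin, 0.760 without replicate 3, and 1.37 in controls. Separation of this kind was common: the ratio of Crabp1 to another tested gene was lower in all bradykinin libraries than in all controls for 21.7% of 12388 genes. The ratio shows that the genes differed unequally and not which of them changed.

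**Figure D2:**
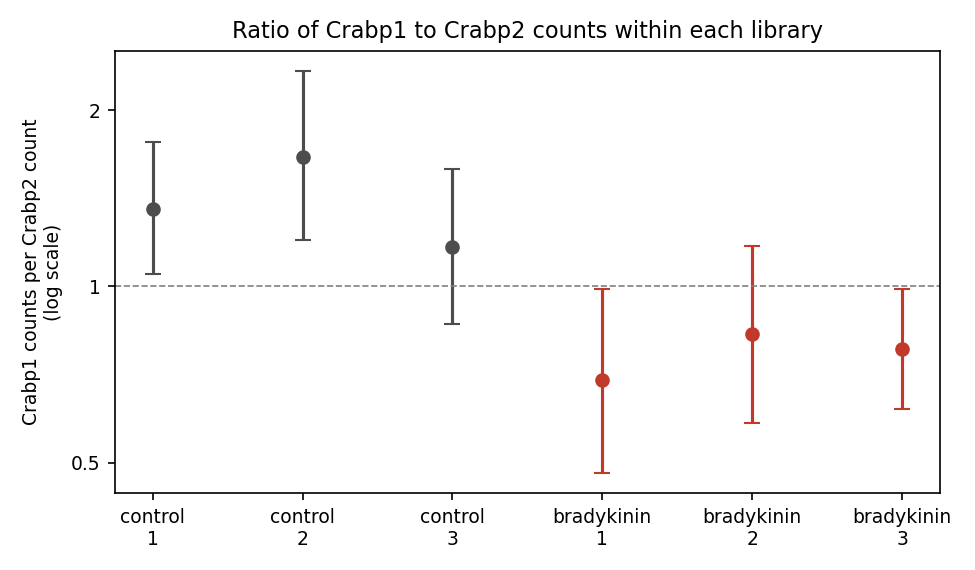
Ratio of Crabp1 to Crabp2 counts in each library on a log axis, with exact 95% Clopper-Pearson intervals that cover counting error only. The dashed line marks equal counts, which are not equal levels, as transcript lengths were not used. The bradykinin libraries sit between 0.692 and 0.829 and the controls between 1.17 and 1.67.

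The stretches before the listed start sites of these binding protein genes are shown because the ratio of their counts separated the groups. They are RefSeq sequences on the plus strand of the GRCr8 assembly, which is not the build of the count table. The Crabp1 stretch is chr8:64047181-64047430 and the Crabp2 stretch chr2:175714612-175714861, each 250 bases long. Capitals mark GGGCGG on either strand, the core of a GC box, and TATAAA on the strand shown.
Crabp1: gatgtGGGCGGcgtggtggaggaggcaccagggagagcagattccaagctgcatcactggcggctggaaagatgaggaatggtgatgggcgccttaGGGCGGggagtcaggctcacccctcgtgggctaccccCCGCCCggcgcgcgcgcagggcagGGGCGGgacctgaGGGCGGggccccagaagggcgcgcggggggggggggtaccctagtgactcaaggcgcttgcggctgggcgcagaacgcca
Crabp2: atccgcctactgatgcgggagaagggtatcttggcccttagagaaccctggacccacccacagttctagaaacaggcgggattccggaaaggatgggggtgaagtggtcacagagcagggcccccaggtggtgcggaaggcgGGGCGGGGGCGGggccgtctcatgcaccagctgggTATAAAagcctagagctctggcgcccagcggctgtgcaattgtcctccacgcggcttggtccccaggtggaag
Crabp1 had 5 matches to GGGCGG and 0 to TATAAA, and Crabp2 had 2 and 1. Over all 33469 RefSeq windows of this length, 30.5% held GGGCGG and 8.06% TATAAA. A match is a description of the letters and not of a working site.

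Among the retinoic acid receptors, Rara and Rarg differed least between the groups' mean levels. Rara (ENSRNOG00000009972), the broadly expressed alpha receptor, had 42.6, 48.3 and 40.2 CPM with bradykinin and 40.3, 38.8 and 42.0 in controls. Bradykinin replicates 1 and 2 were above every control and replicate 3 lay within the control range, so the groups overlapped, with a log2 fold change of 0.11 ± 0.11, and 0.17 ± 0.08 without replicate 3. Rarg (ENSRNOG00000012499), the receptor known for its role in growth plate cartilage, had 98.3, 94.7 and 104 CPM with bradykinin and 101, 94.3 and 102 in controls. Its log2 fold change was -0.001 ± 0.09, and -0.04 ± 0.06 without replicate 3. With 1247 to 1602 counts per library it was the most deeply counted of the 9 genes.

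Rarb (ENSRNOG00000024061), the beta receptor, itself a classical target of retinoic acid, was low, with 17 to 32 counts per library. It had 1.58, 1.31 and 1.11 CPM with bradykinin and 1.62, 2.25 and 1.69 in controls. Every bradykinin library lay below every control, and replicate 1 was next to the lowest control. The log2 fold change was -0.48 ± 0.27, and -0.36 ± 0.33 without replicate 3. Summed counts were 55 with bradykinin and 82 in controls.

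The Rarb window held a match to the direct repeat with a spacer of 5 bases (DR5), the classical element bound by a pair of retinoic acid and retinoid X receptors. It is shown because Rarb was the 1 gene of the 9 with such a match in its RefSeq window, which spans 250 bases before to 50 after a listed start. The bases are chr15:11336410-11336438 of GRCr8, plus strand, with the repeated hexamers in capitals, and the match covers bases 25 to 41 after the listed start.
Rarb: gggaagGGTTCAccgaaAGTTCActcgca
The consensus was searched on both strands, and 0.382% of all 33469 windows held a match. Direct repeats with spacers of 2 or 1 bases were in 0.17% and 0.233% of windows and in 0 of the 10 windows of the 9 genes. Among 44 genes of the wider retinoid list described below that have a window, 1, Cyp26a1, had a DR5 match, and its expression was not analysed here.

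Rxra (ENSRNOG00000009446), the shared partner of these receptors, was lowest in bradykinin replicate 3. It had 27.4, 23.8 and 13.1 CPM with bradykinin and 26.4, 26.3 and 27.6 in controls. Replicate 1 was within the control range, replicate 2 below it, and replicate 3 at 0.514 times the mean of replicates 1 and 2. The log2 fold change of -0.32 ± 0.25 became -0.07 ± 0.09 without replicate 3.

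The enzyme that clears retinoic acid, Cyp26b1 (ENSRNOG00000015076), had the highest log2 fold change of the 7 genes. Its level was 3.31, 2.91 and 2.41 CPM with bradykinin and 1.62, 2.25 and 1.01 in controls, from 37 to 42 and 15 to 32 counts per library. All bradykinin libraries were above all controls, and replicate 3 was next to control replicate 2. The log2 fold change was 0.82 ± 0.32, and 0.93 ± 0.32 without replicate 3, and the gene was not called in either fit. The cartilage-like list, with all 6 markers analysed, summed to 525 to 546 CPM in replicates 1 and 2, to 323 in replicate 3 and to 285 to 302 in controls. Acan made up most of it. Sox9 had 22.5, 27.9 and 15.3 CPM with bradykinin and 22.4, 24.7 and 21.7 in controls, and Comp 3.31, 5.16 and 5.79 against 5.0, 4.28 and 4.80, so both overlapped between groups. Col9a1 was at 0 and Col2a1 had at most 2 counts. The macrophage and leukocyte list, with 3 of 7 markers analysed and mostly Cd14, was also above every control in each bradykinin library. It summed to 9.93 to 10.2 CPM in replicates 1 and 2, to 14.1 in replicate 3 and to 8.79 to 9.90 in controls. The part of these markers in the Cyp26b1 values was not tested.

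The other members of the metabolic arm were at or near 0. Aldh1a2 (ENSRNOG00000055049), which makes retinoic acid in many embryonic tissues, had 1, 0 and 1 counts with bradykinin and 0, 2 and 1 in controls. Stra6 (ENSRNOG00000008312), the receptor that imports retinol from its carrier protein, had 0 counts in all 6 libraries. A count of 0 allows up to 3 counts, or 0.195 to 0.236 CPM, in a library. Neither gene was tested.

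Groups that did not overlap were found in 2 of the 7 tested genes, Cyp26b1 above and Rarb below controls. Among all tested genes, 8.84% had every bradykinin library above every control and 8.71% every one below. Bradykinin replicate 3 was at least 1.5-fold from the mean of replicates 1 and 2 in 3 of the 7 genes, Crabp1, Crabp2 and Rxra, against 30.8% of all tested genes. Of the 21 within-library ratios among the 7 genes, 7 separated the groups, against 17.5% of all gene pairs. Of those 7, the ratio of Rarb to Cyp26b1 counts differed most, by -1.36 on the log2 scale with or without replicate 3. It had to separate the groups, because Rarb lay below and Cyp26b1 above every control in all bradykinin libraries. Most of the separated ratios held Rarb or Cyp26b1, so their number adds little to the lack of overlap of these genes. These pairs share genes and libraries and are not independent of each other.

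**Figure D3:**
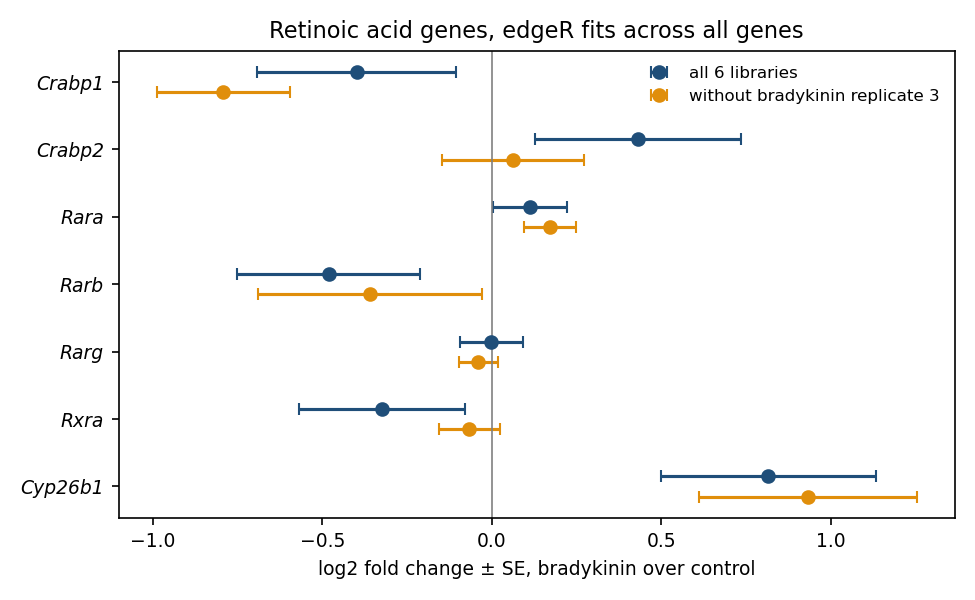
Log2 fold changes ± SE (bradykinin over control) of the 7 tested retinoic acid genes from edgeR fits across all genes. Blue points use all 6 libraries and orange points leave out bradykinin replicate 3. Crabp1 moved from -0.40 to -0.79 without that library, Rxra from -0.32 to -0.07, and Cyp26b1 stayed at 0.82 and 0.93.

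The spread among the 3 controls, which owes nothing to bradykinin, was uneven between genes. Counts of Crabp1, Crabp2 and Cyp26b1 in the controls varied more than counting error, with a chi-square per degree of freedom of 4.42, 4.71 and 3.40. For Rara, Rarb and Rxra it was 0.936, 0.923 and 0.316, and for Rarg 2.73. The median over all tested genes was 1.39. Control CPM of Crabp1 varied by 19.6% (coefficient of variation), where counting alone would give 9.38%.

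The gene whose levels over the 6 libraries were most like those of Crabp1 was Gsta1, a glutathione transferase. Likeness was the root mean squared difference in log2 CPM, each gene centred on its own mean, among 9954 genes. Gsta1 differed by 0.14, and it had 26.0, 24.6 and 39.2 CPM with bradykinin and 44.7, 38.0 and 39.3 in controls. Ccdc51, Gsta5, the DNA repair glycosylase gene Nthl1 and Uap1l1 followed at 0.15, 0.17, 0.17 and 0.19. The median gene differed by 0.44 and Crabp2 by 0.45. Gsta1 and Gsta5 belong to a family of similar copies, so reads may have been shared between them.

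Other genes of the pathway were listed by role, with 62 genes as written, 51 analysed and 36 tested. In the 6 libraries 0 of the 36 were called by edgeR, limma-voom or DESeq2. Their median log2 fold change was -0.15, with 25 below 0, while the median of all tested genes was 0.01. Without replicate 3, 1 of 37 was called lower and 0 higher by edgeR, beside 3.1% of all genes in either direction, and the median was -0.05.

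The gene called was Nr2f1, an orphan nuclear receptor (COUP-TFI) known to be induced by retinoic acid. It had 8.91, 8.65 and 16.0 CPM with bradykinin and 11.8, 13.1 and 13.4 in controls. Replicates 1 and 2 were below every control and replicate 3 above every control. Its log2 fold change was -0.54 ± 0.13 without replicate 3 (edgeR adjusted p = 0.0388) and -0.18 ± 0.25 in all 6 libraries (edgeR adjusted p = 0.796). Over the alternatives in 5 libraries the adjusted p ran from 0.0129 to 0.137, and the call ended with DESeq2 (0.0864), with a replicate block (0.103) and when any 1 of the 5 libraries was left out. The other 11 tested genes known to respond to retinoic acid were not called in the 5 libraries. Of the pair with the highest CPM, not corrected for length, the homeobox gene Meis1 had 43.0 ± 3.51 CPM with bradykinin and 40.5 ± 3.21 in controls, and Nr2f2, the close relative of Nr2f1, 34.5 ± 2.2 and 34.5 ± 2.42 (mean ± SD, n = 3).

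Coregulators, which silence or activate genes together with the receptors, had low values in bradykinin replicate 3. Of 9 tested, 0 were called in either fit, and their median log2 fold change was -0.35 in 6 libraries and -0.04 without replicate 3. In that library 8 of the 9 were below the mean of replicates 1 and 2, with ratios from 0.283 to 1.17 and a median of 0.502, where the median of all tested genes was 0.999. The corepressor gene Ncor1 had 183, 183 and 67.6 CPM with bradykinin and 180, 188 and 184 in controls. Replicate 3 was the lowest of all 6 libraries, and the other bradykinin libraries lay within the control range. Rxra was low in the same library, and what that library shares with these genes was not tested.

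Among 7 tested enzymes of retinoic acid synthesis and its reversal, 0 were called in either fit. Dhrs9, a retinol dehydrogenase, had a bradykinin mean of 104 ± 13.3 CPM and a control mean of 98.1 ± 5.93 (edgeR adjusted p = 0.80). Dhrs4, which reduces retinal, had 25.9 ± 6.56 and 28.3 ± 1.39 CPM (edgeR adjusted p = 0.804), and without replicate 3 its log2 fold change was -0.35 ± 0.10 (adjusted p = 0.0739). It was called lower in those 5 libraries when scaled by library totals, with no filter on low counts, and when bradykinin replicate 2 was also left out. In storage, Dgat1, which can esterify retinol, was the 1 tested gene, at 25.8 ± 0.342 and 24.3 ± 1.82 CPM. Among 8 tested retinoid X receptors and partner receptors, 0 were called. Rxrb, the beta retinoid X receptor, had 118 ± 15.3 CPM with bradykinin and 128 ± 8.27 in controls, and the thyroid hormone receptor gene Thra 69.9 ± 2.97 and 69.2 ± 4.89.

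Of the 36 tested genes, 5 had every bradykinin library below every control, and 0 had every one above, where 8.71% and 8.84% of all tested genes did. These were Aldh1a1, a retinaldehyde dehydrogenase, the coregulator genes Ncoa1, Ncoa3 and Nrip1, and the homeobox gene Hoxa4, named here after their values were seen. Their log2 fold changes ran from -0.71 to -0.47 in 6 libraries and from -0.77 to -0.22 without replicate 3. Aldh1a1 had 1.18, 2.25 and 2.21 CPM with bradykinin and 2.66, 3.37 and 2.84 in the control libraries, with an edgeR adjusted p of 0.737.

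**Figure D4:**
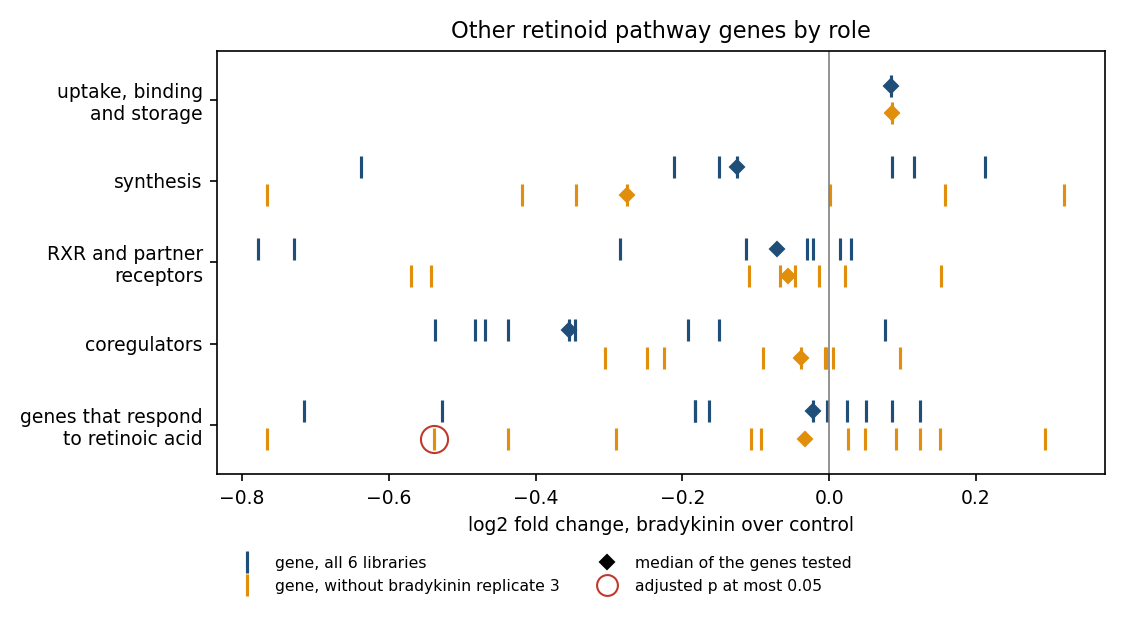
Log2 fold change (bradykinin over control) of the other tested retinoid pathway genes by role. Each tick is a gene, diamonds are medians, blue uses all 6 libraries and orange leaves out bradykinin replicate 3. The red ring marks Nr2f1, the 1 gene called, and the coregulator median moves from -0.35 to -0.04 without that library.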

How the data were processed

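The authors deposited raw, whole-number counts for each Ensembl gene. The submitters' processing notes name the build Rnor_6.0 and the tools RSEM 1.3.3, HISAT2 2.2.1, fastp 0.23.2, SAMtools, DESeq2 1.34.0 and Bowtie2 2.4.5, without saying which made the counts. A counter such as RSEM divides reads among similar genes by estimate. The labels state no strand, so overlapping antisense genes cannot be told apart. Symbols came from Entrez identifiers through a RefSeq table of GRCr8, naming 15073 of 17139 genes. Transcript lengths were not used here, so levels are not compared between genes, apart from the CPM ranks that chose names.

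Genes were filtered with filterByExpr, scaled by TMM and tested with edgeR 4.0.16 (R 4.3.3; quasi-likelihood F test, two-sided, Benjamini-Hochberg over all tested genes). SE is the log2 fold change over the root of F. Likeness used genes of average log2 CPM of 2 or more, and a prior count of 2. Intervals used SciPy 1.17.1. The fits were checked on simulated counts. These had the same spread setting for all genes and no library that stood apart, so the check does not cover the effect of bradykinin replicate 3. Alternatives were RLE factors, library totals, DESeq2 1.42.0, limma-voom (limma 3.58.1), other filters, each library left out and a replicate block.

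The genes, lists and tests were chosen with earlier results of these data known. Named from the wider list were genes called in either fit and, for each role, the 2 tested genes with the highest mean CPM. Genes of that list whose groups did not overlap were named after their values were seen. A further gene that falls under this rule is not reported here.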

Additional observations from a re-analysis of the deposited data

How the results depend on the processing

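In 6 libraries, the count of changed genes was 0 under every setting except DESeq2 (44) and leaving out a library (0 to 388, the 388 without bradykinin replicate 3). The wider list and the 9 genes had 0 to 1 called when a library was left out, and 0 otherwise. In the 5 libraries, 388 genes became 681 with no filter on low counts and 138 to 333 with a further library left out (145, 138 and 209 without control replicates 1, 2 and 3). Leaving out a bradykinin library there leaves 1, assumed to vary like the controls. The wider list, 1 called, had 2 with library totals or no filter, 0 with DESeq2 and 0 to 1 with a library left out. Of the 9 genes, 1 called became 0 with limma-voom and 0 with any library left out. DESeq2 gave no adjusted p for Crabp1 there, so it has no value. The cause of these shifts was not tested.

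Same-numbered libraries deviated from their group means with correlations of -0.09, -0.02 and -0.05. These values cannot show whether replicate numbers pair the samples, because each mean rests on 3 libraries and bradykinin replicate 3 stood apart. The replicate block left 0 genes called in 6 libraries and 301 in 5, 1 of the 9 genes and 0 of the wider list in 5.

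The log2 fold changes of the 7 tested genes moved by less than 1 SD between replicates in 91 of 91 alternative values in 6 libraries and in 81 of 84 in 5. In 6 libraries that SD includes bradykinin replicate 3: it was 0.43 for Crabp1 and 0.40 for Rxra, against 0.23 and 0.09 in 5. The yardstick is therefore lenient on the shifts from leaving out that library. Ordering the genes by level per coding length was not run, as no lengths were at hand. Depth limits Rarb (17 to 32 counts per library) and Cyp26b1 (15 to 42), and left Aldh1a2 and Stra6 untested.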
